A study of Bos taurus with 8 samples.

Results

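The tight junction genes described here are the claudins CLDN1, CLDN3, CLDN4, CLDN5, CLDN7 and CLDN10, the membrane proteins OCLN (occludin) and F11R (junctional adhesion molecule A), and the cytoplasmic plaque proteins TJP1 (ZO-1) and CGN (cingulin). They were found through the RefSeq accession that the array gives for a probe, and 8 of the 10 genes had such a probe, 1 each, among the 7788 genes named on the array and its 21475 probes. OCLN and TJP1 were matched to no probe and were not analysed here. Of the 8 genes, 7 gave a signal well above background in every sample, and CLDN10 did so in none.

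The arrays measured RNA from ventral rumen sac papillae of 4 lactating, ruminally cannulated Holstein cows, each fed a low-concentrate diet (LC, 40% concentrate of the dry matter) in one period and a high-concentrate diet (HC, 70%) in the other. Cows 1 and 2 received LC in period 1 and HC in period 2, and cows 3 and 4 the reverse, so that each diet had 4 arrays. Papillae were taken on day 21 of each period, 4 h after the morning feeding. The arrays of a period shared a slide, 1 slide for each of the 2 periods, so period cannot be told apart from slide. Both groups held the same 4 cows, with 2 of them in each period. A table of normalized values deposited with the scanner output exchanges cows 1 and 2 on both diets. Any value given here for cow 1 or cow 2 may thus belong to the other of these cows.

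The rumen is lined by a stratified squamous epithelium that absorbs fermentation acids and keeps the rumen contents away from the blood. Tight junctions seal the space between neighbouring cells: claudins set which ions pass, occludin and junctional adhesion molecules span the membrane beside them, and ZO-1 and cingulin link the strands to actin. In the rumen wall, claudin 1, claudin 4 and ZO-1 are known from the granular layer.

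Per array, 76.9% to 81.2% of all probes lay well above background, and the lowest such log2 signal was 2.02 to 2.77. The tissue carried the transcripts of a stratified epithelium. Of 7 measured markers of this type, 6 were measured in every sample (TP63 in none), and none passed the test for diet. Their mean log2 signal per array was 14.65 to 15.32 on LC and 14.75 to 15.46 on HC. The marker DSG1 varied most among them, from 9.13 to 12.92 over the arrays. Its log2 difference was -0.64 (SE 0.83, unadjusted P of 0.471 in limma). Endothelial, leukocyte and stromal markers were measured as well, so a signal comes from all cells of a papilla, and in such bulk RNA fewer cells of a type and less RNA per cell cannot be told apart. Signals of different probes are not on a common scale, and levels of different genes were not ranked. The sums over marker genes given below therefore follow mainly the brightest probes.

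No tight junction gene passed the test for diet, for which the fold change had to be 1.5 or more with an unadjusted limma P under 0.05: 0 of 7, beside 0.922% of all probes. One gene, CLDN3, had an unadjusted P under 0.05, beside 3.65% of all probes. The log2 signals of the 4 LC and the 4 HC arrays overlapped in each of the 7 genes, beside 1.6% of all probes in which they did not. The median log2 difference between HC and LC over the 7 genes was 0.04, against 0.00 over all probes. No probe on the array had a Benjamini-Hochberg adjusted P under 0.05 for diet, and the smallest was 0.412.

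Among the 5 claudins of the set measured in every sample, CLDN3 (NM_205801) had the largest difference between the diets. Its log2 signal on LC was 8.50, 8.54, 8.40 and 8.45 in cows 1 to 4, and on HC it was 8.14, 7.87, 8.42 and 7.81 in the same order. The 4 LC arrays lay close together, and the HC arrays of cows 1, 2 and 4 lay below all of them, while the HC array of cow 3 lay among them. The mean was 8.47 ± 0.06 on LC and 8.06 ± 0.28 on HC (SD, n = 4), a log2 difference of -0.41 (SE 0.15, 95% interval -0.79 to -0.04), which is 1.33-fold lower on HC. The unadjusted P was 0.0355 and the adjusted P 1.0 in limma, and the exact two-sided permutation P over the arrays was 0.0571. The permutation tests given here do not use the pairing of arrays by cow. The smallest exact P that 4 cow pairs can give is 0.125, and the P over cow pairs was not computed for CLDN3. Within cows 1 to 4, HC minus LC was -0.37, -0.67, 0.02 and -0.64. The difference was -0.40 in period 1 and -0.42 in period 2. The 2 spots of the probe differed by at most 0.13 on an array, less than the change in the 3 cows. CLDN3 is a claudin with sealing function that is common in simple epithelia such as that of the intestine.

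The size of the CLDN3 difference turned on single HC arrays. The log2 difference was -0.26 when the HC array of cow 4 was left out (unadjusted P of 0.0658 in limma) and -0.57 when that of cow 3 was left out (unadjusted P of 0.0035). Leaving out any LC array, or the HC array of cow 2, also took the unadjusted P over 0.05, with 0.106 as the highest, without the HC array of cow 2. Without an LC array the difference itself stayed at -0.42 to -0.40.

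Markers of simple epithelia were set beside CLDN3. Of 5 measured markers of this type, 3 were measured in every sample and KRT20 in none. The log2 of the summed signal of these 3 was 10.29 to 11.74 on LC and 10.48 to 10.99 on HC. KRT8, a keratin of simple epithelia, was lower on HC by 0.64 (log2, SE 0.20, unadjusted P = 0.0166, exact permutation P = 0.343) and was the 1 marker of the 3 that passed the test, beside the 0.922% of all probes. It was also lower in period 2 by 0.69 (SE 0.20, unadjusted P of 0.0121 in limma) and was the 1 of the 3 that passed the test for period. HC minus LC was -1.39 and -1.26 in cows 1 and 2, which received HC in period 2, and -0.09 and 0.19 in cows 3 and 4. KRT18, the partner keratin of KRT8, differed by -0.52, 0.01, -0.43 and -1.06 in cows 1 to 4. CDHR5, a cadherin of the brush border, differed by 0.04 in all, and by -0.04, -0.47, 0.36 and 0.31 in cows 1 to 4. On HC, all 3 markers were lower in cow 1, KRT8 and CDHR5 in cow 2, KRT8 and KRT18 in cow 3, and KRT18 alone in cow 4. The part of cells of simple epithelia in the CLDN3 difference was not tested.

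CLDN1 (NM_001001854), a claudin that the barrier of the skin depends on, did not follow the diet. Its log2 signal was 13.36, 13.55, 13.17 and 13.65 on LC and 13.58, 13.54, 13.57 and 13.48 on HC in cows 1 to 4. The HC arrays lay close together and inside the range of the LC arrays. The means were 13.43 ± 0.21 and 13.54 ± 0.05 (SD, n = 4), and the log2 difference was 0.11 (SE 0.13, 95% interval -0.21 to 0.42). The unadjusted P was 0.437 in limma and 0.371 in the exact permutation test, and CLDN1 was higher on HC in 2 of 4 cows.

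CLDN4 (NM_001014391), which limits the passage of sodium through the junction in other epithelia, varied more among cows. Its log2 signal was 10.20, 10.63, 10.00 and 9.92 on LC and 9.80, 10.26, 10.73 and 10.02 on HC. It was lower on HC in cows 1 and 2 and higher on HC in cows 3 and 4, which are the cows that received HC first. The log2 difference between the diet means, 10.19 ± 0.32 and 10.20 ± 0.40 (SD, n = 4), was 0.02 (SE 0.21, 95% interval -0.48 to 0.52), with an unadjusted P of 0.930 in limma and 0.943 in the exact permutation test. CLDN4 and CLDN3 are neighbours in the bovine genome, but the 3 cows with a lower CLDN3 signal on HC did not share a direction in CLDN4.

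CLDN7 (NM_001040519), a claudin found along the sides of epithelial cells as well as in the junction, had log2 signals of 10.04, 9.69, 9.85 and 10.42 on LC and 10.48, 10.24, 9.99 and 9.72 on HC. Cows 1 to 3 were higher on HC and cow 4 was lower, and the ranges of the diets were nearly the same. The means were 10.00 ± 0.32 and 10.11 ± 0.33 (SD, n = 4). The log2 difference was 0.11 (SE 0.17, 95% interval -0.31 to 0.52) with an unadjusted P of 0.550 in limma and 0.657 in the exact permutation test.

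CLDN5 (NM_001076460) is the claudin of blood vessel endothelium. Its log2 signal was 6.06, 5.97, 6.19 and 5.80 on LC and 6.24, 5.61, 6.24 and 6.33 on HC. The HC array of cow 2 lay apart below the other 3 HC arrays, and its group still overlapped with LC. The log2 difference was 0.10 (SE 0.17, 95% interval -0.31 to 0.51, unadjusted P = 0.588, exact permutation P = 0.629). The 2 spots of this dim probe differed by up to 0.56 on an array. By the brightest probe of each gene, all 7 measured endothelial markers had a difference above 0. The median was 0.09, and the unadjusted P values in limma ran from 0.179 to 0.968. A second, dimmer probe of the marker ERG went the other way, by -0.33 (unadjusted P of 0.0755 in limma). A difference above 0 was not particular to endothelial markers. It was also found in 8 of 9 stroma and muscle markers and 4 of 5 leukocyte markers. Among epithelium markers it was found in 3 of 6 stratified and 1 of 3 simple ones. The log2 of the summed signal of the 7 endothelial markers, by the brightest probes, was 13.12 to 13.29 on LC and 13.22 to 13.42 on HC. This sum mostly follows the marker PLVAP, at 12.69 to 13.08. The part of endothelial cells in CLDN5 was not tested.

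CLDN10 (NM_001014857), a claudin of kidney and gland epithelia, had log2 signals of 0.16 to 0.51. These lay under the lowest signal well above background on any array, so that no fold change is given.

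F11R (NM_174095) encodes a membrane protein of the immunoglobulin family that takes part in junction assembly. On LC its log2 signal was 12.66, 12.70, 12.71 and 12.65, and on HC it was 12.67, 12.68, 12.87 and 12.64. All arrays but the HC array of cow 3 lay between 12.64 and 12.71. The log2 difference was 0.04 (SE 0.09, unadjusted P = 0.678, exact permutation P = 0.743), and the 95% interval of the fold change, HC over LC, was 0.882 to 1.197.

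CGN (NM_001192786) encodes the plaque protein that binds ZO-1 and actomyosin. On LC its log2 signal was 12.55, 12.57, 12.47 and 12.79, and on HC it was 12.54, 12.65, 12.38 and 12.73. The cows kept their order on both diets, with cow 3 lowest and cow 4 highest. The cow means spanned 0.33 (log2), while HC minus LC within a cow was -0.10 to 0.08. In the other 6 genes the largest change within a cow exceeded the span of the cow means. The log2 difference of CGN was -0.02 (SE 0.12, unadjusted P = 0.871, exact permutation P = 0.857), and the 95% interval of its fold change was 0.800 to 1.21.

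**Figure D1:**
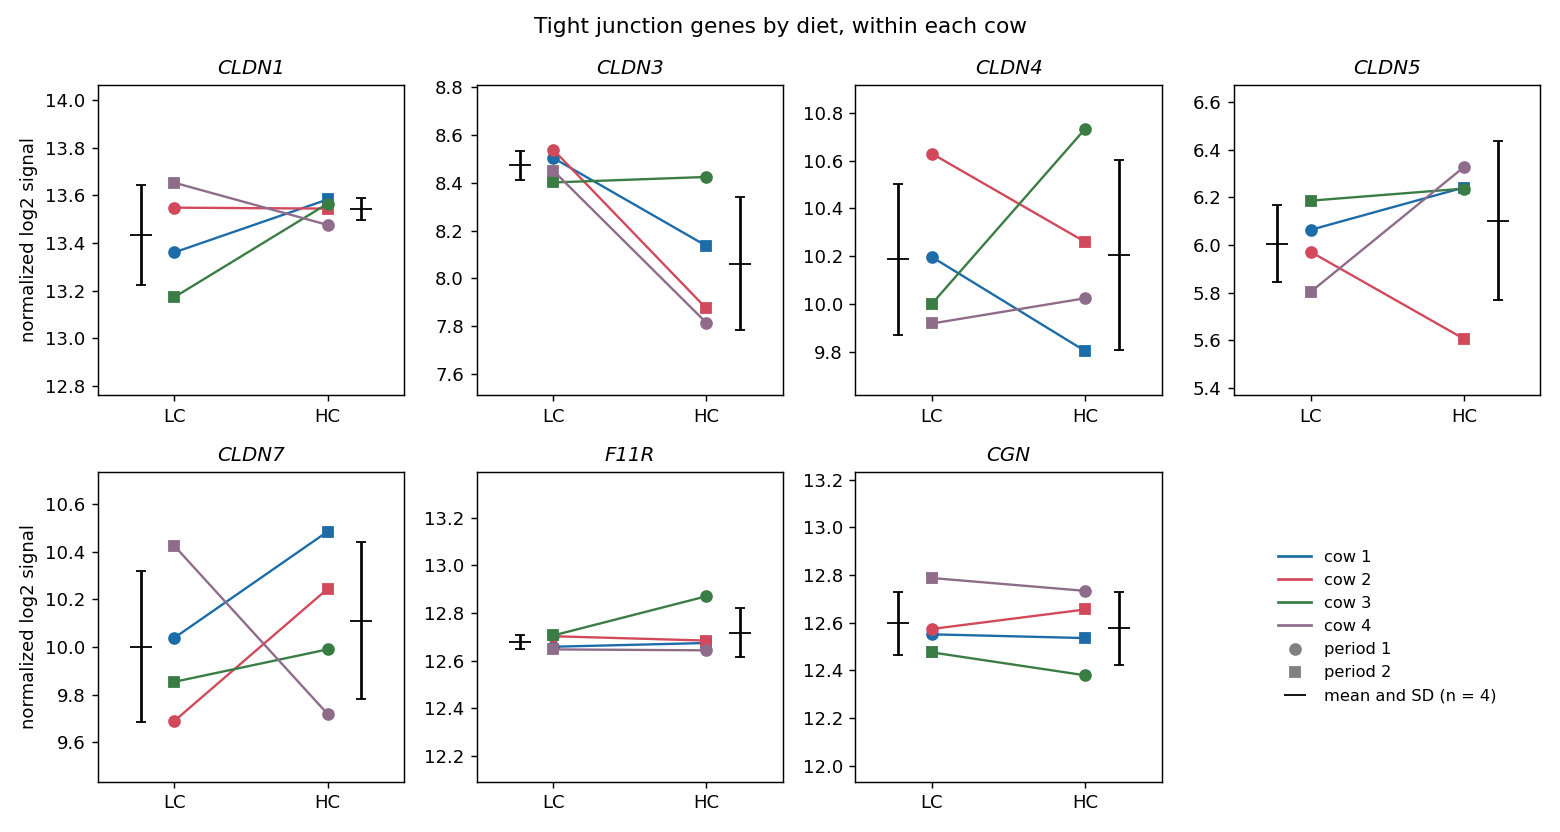
Normalized log2 signal of the 7 tight junction genes measured on all arrays, on the LC and the HC diet. Each line joins the arrays of 1 cow, circles are period 1 and squares period 2, and the black bars give the mean and SD of the 4 arrays. The y axes span the same number of log2 units but start at different values. CLDN3 falls in cows 1, 2 and 4 and not in cow 3, and the lines of CLDN1, CLDN4, CLDN5 and CLDN7 cross.

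The intervals show what the arrays could resolve in the moderated limma fit. Intervals without moderation were not computed, so the bounds hold for this fit alone. For the 6 genes other than CLDN3, these 95% intervals of the fold change lay between 0.717 and 1.43. In this fit none of them reached 1.5-fold in either direction. The unadjusted P values of these 6 genes were 0.437 to 0.93. The interval of CLDN3, 0.580 to 0.974, included changes of over 1.5-fold. The median HC minus LC of the 7 genes was 0.02, -0.02, 0.14 and -0.05 in cows 1 to 4.

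CLDN4 and CLDN7 differed between the periods by more than they did between the diets. CLDN4 had a mean log2 signal of 10.40 in period 1 and 9.99 in period 2, and it was lower in period 2 in 4 of 4 cows, by 0.39, 0.37, 0.73 and 0.11 in cows 1 to 4. The difference, -0.40 (SE 0.21, 95% interval -0.90 to 0.10), had an unadjusted P of 0.0973. CLDN7 went the other way, from 9.86 to 10.25, with changes of 0.45, 0.55, -0.14 and 0.70 in cows 1 to 4. Its difference, 0.39 (SE 0.17, 95% interval -0.02 to 0.80), had an unadjusted P of 0.0594. None of the 7 genes passed the test for period with the 1.5-fold threshold, beside 3.86% of all probes, or had an unadjusted P under 0.05, beside 12.3% of all probes. With cow as a fixed block, the unadjusted P for period was 0.0355 for CLDN4 and 0.0703 for CLDN7, and with cow as a random block it was 0.0512 and 0.0411. Both differences turned on single arrays. With the HC array of cow 3 left out, that of CLDN4 was -0.22 (unadjusted P of 0.268 in limma), and with the HC array of cow 4 left out it was -0.58 (0.0224). For CLDN7 the difference was 0.25 with the LC array of cow 4 left out (0.159) and 0.53 with that of cow 3 left out (0.0162).

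**Figure D2:**
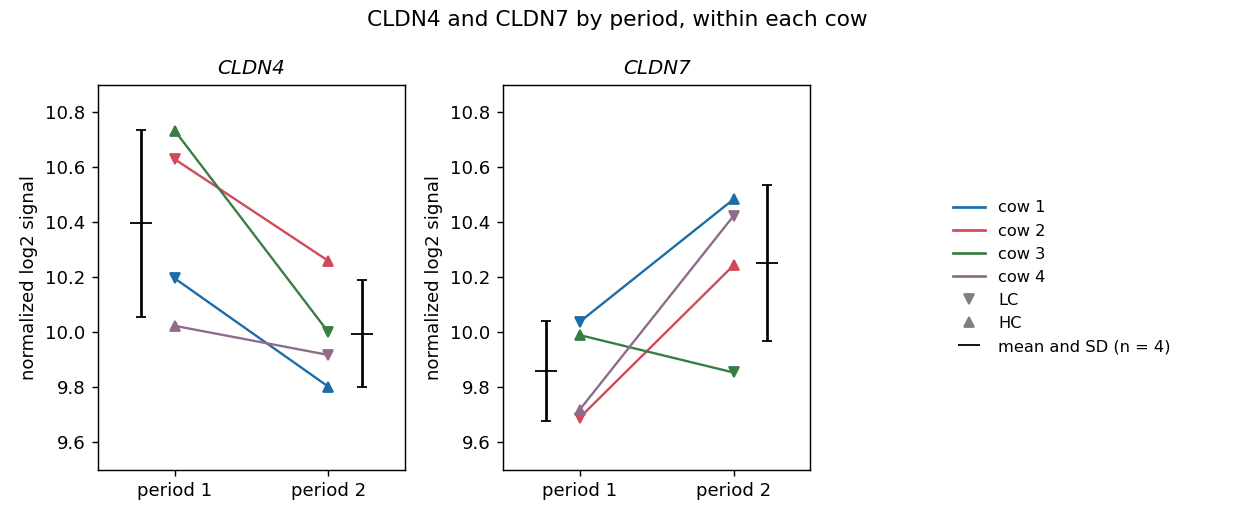
Normalized log2 signal of CLDN4 and CLDN7 in period 1 and period 2. Each line joins the arrays of 1 cow, triangles pointing down are LC and triangles pointing up are HC, and the black bars give the mean and SD of the 4 arrays. CLDN4 is lower in period 2 in 4 of 4 cows and CLDN7 is higher in 3 of 4.

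No dependence of the diet difference on the period was detected in these genes. The interaction, which lies between cows 1 and 2 and cows 3 and 4, was tested on the mean of each cow, and 0 of the 7 genes had an unadjusted P under 0.05 (0.381 to 0.952), beside 5.96% of all probes. For differences between cows, an F test gave 0 of the 7 genes an unadjusted P under 0.05 (0.125 to 0.726), beside 16.3% of all probes. Over the 8 arrays of 4 cows, 18 of the 21 pairs of genes had a Pearson r of a size under 0.5. The highest was 0.73, between CLDN4 and F11R, which were both highest on the HC array of cow 3, and the lowest was -0.77, between F11R and CGN, which on that array was at its lowest. These r values rest on few arrays that share cows and slides.

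The rest of the junction was read from lists of other genes. Of 58 such genes in 4 lists, 25 had a probe and 21 were measured in every sample. None of the 21 passed the test for diet or had an unadjusted P under 0.05, beside 0.922% and 3.65% of all probes, shares at which a list of this size can hold none. The log2 differences, 12 above and 9 below 0, ran from -0.16 to 0.24 with a median of 0.02, and the unadjusted P values from 0.105 to 0.944. By list, the measured genes were 4 of 16 other claudins, 4 of 11 other membrane proteins, 7 of 20 plaque and polarity proteins, and 6 of 11 signalling partners.

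In the upward direction the smallest P values were those of MAGI3, a scaffold protein of the plaque, and ESAM, an adhesion molecule of endothelial junctions. MAGI3 had log2 signals of 4.94, 5.16, 5.55 and 5.96 on LC and 5.64, 5.49, 5.67 and 5.77 on HC, a difference of 0.24 (SE 0.13, unadjusted P = 0.105, exact permutation P = 0.343). Its LC arrays spanned the HC arrays, and only cows 1 to 3 were higher on HC. ESAM differed by 0.19 (SE 0.12, unadjusted P = 0.152, exact permutation P = 0.229), with means of 7.13 ± 0.25 on LC and 7.32 ± 0.09 on HC (SD, n = 4).

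In the downward direction they were those of CLDN18, a claudin of stomach and lung epithelium, and RAB13, a GTPase of junction traffic. CLDN18 had log2 signals of 4.26, 4.21, 4.32 and 4.22 on LC and 4.01, 4.10, 4.18 and 4.09 on HC. All HC arrays lay below all LC arrays, the 1 of the 21 genes without overlap, beside 1.6% of all probes. The exact two-sided permutation P over the arrays was 0.0286, the smallest that 4 against 4 arrays can give. It does not use the pairing of arrays by cow. CLDN18 was lower on HC in 4 of 4 cows, for which the exact P over cow pairs is 0.125, the smallest that 4 pairs can give. The difference of -0.16 (SE 0.08, 1.11-fold) had an unadjusted P of 0.114 in limma, and the 2 spots of the probe differed by a median of 0.19 and by up to 0.51 on an array, more than the change. RAB13 differed by -0.11 (SE 0.10, unadjusted P = 0.299, exact permutation P = 0.486).

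TJP3, a plaque protein that binds claudins, was named after its values were seen. It differed by 0.09 (log2, SE 0.15, unadjusted P = 0.558, exact permutation P = 0.457).

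**Figure D3:**
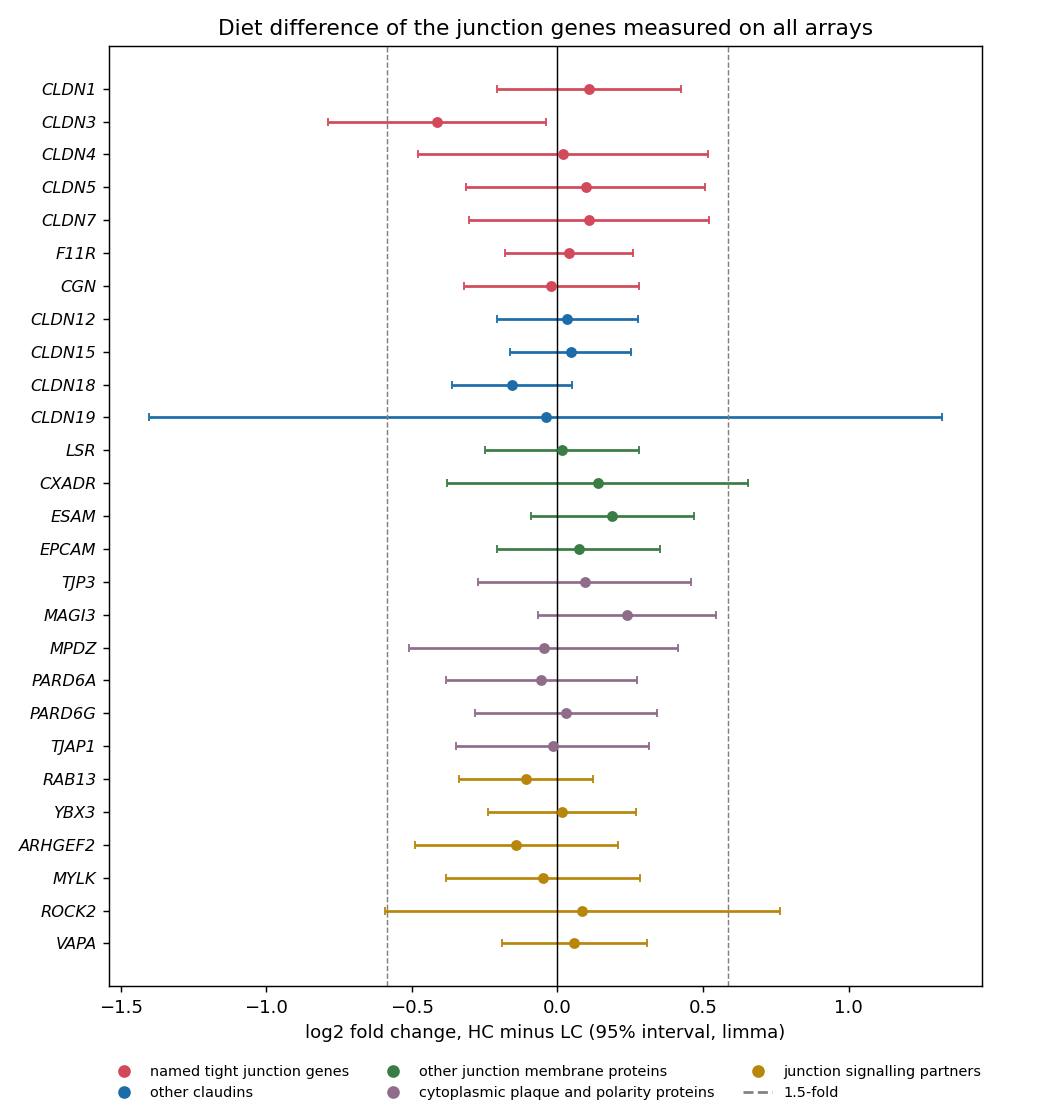
Log2 fold change between HC and LC (HC minus LC) of the 7 tight junction genes and of 20 other junction genes measured on all 8 arrays, with the 95% interval from limma as horizontal bars and colours for the lists. The dashed lines mark 1.5-fold. CLDN3, at -0.41, is the 1 gene whose interval leaves out 0, and CLDN19 has the widest interval, -1.40 to 1.32. The fit holds no term for cow, so stable differences between cows, as in CLDN19, widen an interval.

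CLDN19, a claudin of kidney, eye and nerve, differed between cows rather than diets and was named after its values were seen. Its log2 signal was 6.66, 5.21, 5.01 and 6.37 on LC and 6.37, 5.14, 5.03 and 6.54 on HC. Cows 1 and 4 were high and cows 2 and 3 low on both diets, with a span of 1.50 between cow means and at most 0.28 within a cow. The F test between cows gave an unadjusted P of 0.000329 and an adjusted P of 0.0968 in limma. Of the 21 other junction genes, 4 had an unadjusted P under 0.05 in this test (CLDN19, CXADR, MPDZ and ROCK2), beside the 16.3% of all probes. In the deposited table the columns named for cows 1 and 2 follow the scanner output of the other of these cows on both diets, so which of these cows was high is uncertain, while the pairing of diets within a cow is not affected.

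**Figure D4:**
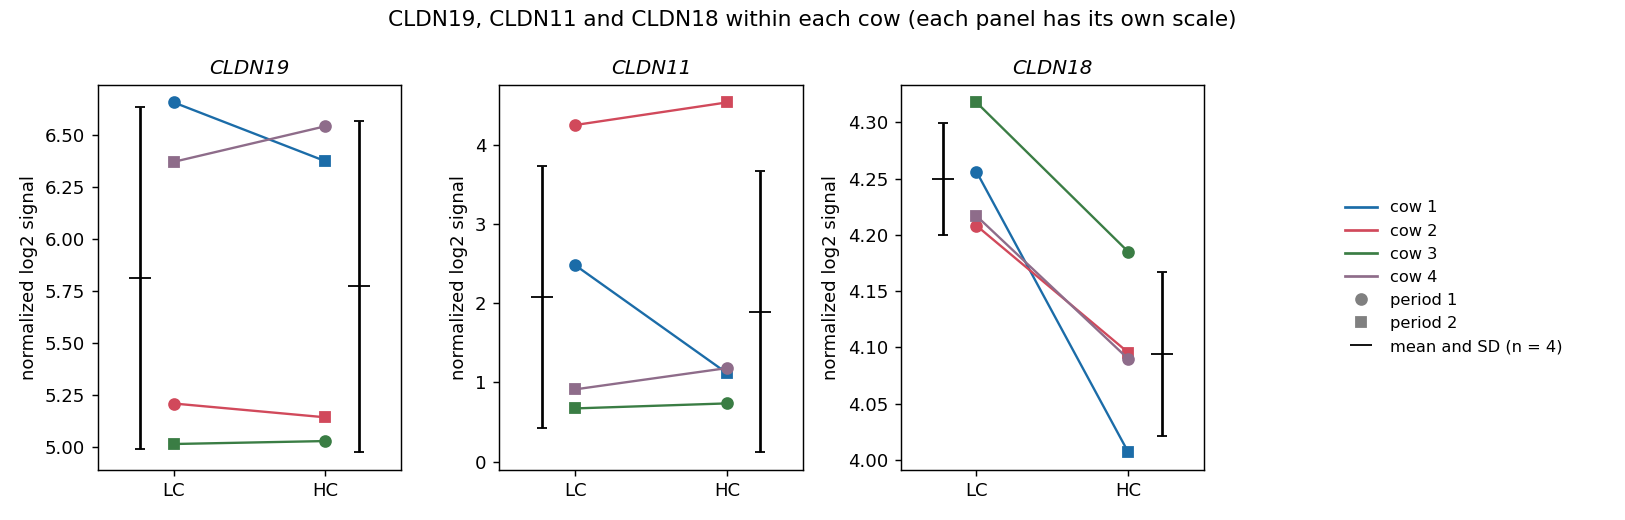
Normalized log2 signal of CLDN19, CLDN11 and CLDN18 on LC and HC. Each line joins the arrays of 1 cow, circles are period 1 and squares period 2, and the black bars give the mean and SD of the 4 arrays. CLDN19 separates cows 1 and 4 from cows 2 and 3, CLDN11 is highest in cow 2 on both diets, and CLDN18 lies lower on all HC arrays within a span of 0.31 (log2).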

How the data were processed

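Papilla RNA of 4 cows on 2 diets was hybridised to 8 single-colour bovine arrays. The authors deposited scanner output (Agilent Feature Extraction 10.7.3.1, per the file headers and the submitters' processing notes) with a background-subtracted intensity per spot, not normalized between arrays, and a table of quantile-normalized log2 values, whose column medians were all 6.80 and which served as an alternative. How the labels and the study's methods place cows, diets and periods is described above, and samples were grouped by the labels.

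Control spots and outlier spots (0 to 13 per array) were left out, log2 intensities were quantile-normalized with limma 3.58.1 (R 4.3.3), and the values of a probe's 2 spots were averaged. A probe counted as well above background on an array when the scanner software said so of all its spots. This held for 16030 probes on all 8 arrays and 3487 on none, and no spot was saturated on the probes described. Of 10176 probes with a RefSeq accession, 8297 were named through the RefSeq gene table of ARS-UCD2.0. No position or sequence is given, since no sequence and no genome of the array's build was used here. A model of diet, period and diet by period was fitted to all 21475 probes (4 residual and 2.26 prior degrees of freedom, prior SD 0.182), with 95% intervals from the moderated variance and Benjamini-Hochberg adjustment over all probes. The fit was also run on simulated data with independent noise on each array, which cannot show how it behaves on arrays paired by cow. Permutation tests used scipy 1.17.1, tables pandas 2.3.3 and plots matplotlib 3.10.9 in Python 3.11.15. The number of arrays limits the precision, and samples of the same cow on different diets are not independent.

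The number of a cow in the labels marks 1 animal, which pairs the samples. Deviations from the diet mean, correlated over the 16030 probes, had r of 0.285, 0.298, 0.467 and 0.113 within cows 1 to 4, and -0.237 to 0.185 between different cows.

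The named genes are the 10 members and, of the other junction lists, those that passed the test and the 2 in each direction with the smallest P for diet among those well above background on all arrays. Members, lists and markers were chosen with earlier results of these data known. Other genes named in the text were chosen after their values were seen. Alternatives were scaling to the 75th percentile, normexp background correction (offset 50, on the median spot and background signals, since the mean signals planned were not in the columns used), the deposited table, cow as a fixed or random block, fewer model terms, no moderation, a filter on dim probes (well above background on at least 4 arrays), the mean over probes of a gene, and leaving out each array. The F test between cows was added after the data were seen. The values of 1 other junction gene are not reported here, though the counts over the lists include it.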

Additional observations from a re-analysis of the deposited data

Results flagged for a closer look

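Of 62 groups of 4 arrays examined in 31 junction and marker genes, 7 held an array far from the other 3. Chance gives about 1 in 20 groups, but the share among all probes was not computed. Some of the 31 genes, such as CLDN11, were picked with their signals already known. The count of 7 therefore cannot be read as an excess over chance. In CLDN5 it was the HC array of cow 2, at a log2 signal of 5.61. In CLDN15 it was an HC array at 7.60, in ARHGEF2 an HC array at 9.26, in VAPA an HC array at 10.52 and in CLDN11 an HC array at 4.54. In MYLK an LC array lay apart at 12.11, and in KRT8 an HC array at 8.82. The effect of diet differed between the periods at an unadjusted P under 0.05 in 2 of the 31 genes, beside 5.96% of all probes, a share near that of the 31 genes. For MAGI3, HC minus LC was 0.67 in period 1 and -0.19 in period 2 (unadjusted P of 0.0322 on cow means, adjusted P = 0.817 in limma). For KRT8 it was -1.62 in period 1 and 0.34 in period 2 (unadjusted P of 0.0136 on cow means, adjusted P = 0.817 in limma). This contrast lies between cows, so it cannot be told apart from a difference between the pairs of cows.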

How the results depend on the processing

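No gene of the set passed the test for diet or for period, and no other junction gene for diet, in any of the settings run. CLDN3 was lower on HC in all 18 of its settings, by 0.26 to 0.57 (log2). With cow as a replicate block and period as a term its difference was -0.41 (unadjusted P of 0.0437 in limma), with cow as a random block P was 0.0226, and the block changed no call of the set. The count of genes with an unadjusted P under 0.05 for diet, 1 in the report, was 0 with normexp (CLDN3 -0.31, P of 0.055) and 0 with the linear model without moderation (P of 0.069), and 0 to 1 when each array was left out. CLDN4 turned to -0.015 with normexp. With each array left out, the log2 difference ran from -0.012 to 0.23 for CLDN1, -0.16 to 0.20 for CLDN4, -0.062 to 0.26 for CLDN5, -0.035 to 0.25 for CLDN7, -0.017 to 0.10 for F11R and -0.11 to 0.068 for CGN. The cause was not tested. For period, arrays left out in turn gave -0.58 to -0.22 for CLDN4 and 0.25 to 0.53 for CLDN7, and CLDN7 had an unadjusted P of 0.049 with diet and period alone. With normexp, the diet difference was 0.086 for MAGI3, 0.079 for ESAM and -0.046 for CLDN18. With arrays left out it was 0.14 to 0.34 for MAGI3, 0.09 to 0.29 for ESAM and -0.16 to -0.058 for RAB13. CLDN18 had a P of 0.0222 without moderation. The median of the set ran from -0.01 to 0.10 over all settings. KRT8 did not pass the test with diet and period alone (P of 0.159), with diet alone (P of 0.194), without the LC array of cow 4 (-0.52) or without the HC array of cow 3 (-0.45). All probes that passed for diet were 198 in the report, 8 with normexp and 415 with the deposited table, where the smallest adjusted P in limma was 0.0351. The count for the interaction was 0 with percentile scaling, normexp and the deposited table, and was not computed with arrays left out. As each gene of the set has 1 probe, no second probe could be tried. Signals not well above background limit CLDN10, which has no level, and the 4 of 8 other claudins with a probe that were not measured on all arrays.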

Other observations

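The other claudins at the edge of detection were named after their values were seen. CLDN11, a claudin of myelin and testis, had a log2 signal of 4.25 on LC and 4.54 on HC in cow 2, and of 0.67 to 2.48 on the other arrays, and was well above background on 2 LC arrays and 1 HC array. CLDN8, a claudin of kidney and colon, had a log2 signal of 5.21 on the LC array of cow 2 against 2.76 to 3.48 on the other arrays. That value rests on 2 spots that differed by 4.21 (log2), and CLDN8, well above background on 6 of the 8 arrays, had a log2 difference of -0.62 (SE 0.39, unadjusted P of 0.164 in limma). CLDN2, which forms a cation channel, reached a signal well above background in 1 LC sample and no HC sample, with log2 signals of 1.66 to 2.79, so that no fold change is given, and CLDN16 was so on no array. LSR, a protein of junctions between 3 cells, was the 1 other junction gene with an unadjusted P under 0.05 for period, lower in period 2 by 0.27 (log2, unadjusted P of 0.0459) in 4 of 4 cows, with an adjusted P of 0.394 in limma. This is 1 of 21 genes, beside 12.3% of all probes. CXADR, a virus receptor of the junction, was highest in cow 3 on both diets, at 11.90 on LC and 11.98 on HC, and MPDZ, a scaffold of the plaque, was also highest in cow 3 on both diets, at 8.26 and 7.92.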
